A study of Rattus norvegicus with 16 samples.

Results

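The genes described here are 10 that mark heart muscle, measured in rat lung: Myl7, Myh6, Tnnt2, Tnni3, Tcap, Actc1, Nppa, Mb, Ckm and Ckmt2. They were chosen by name, and every probe set that the platform annotation assigns to one of them was taken. Of 15866 probe sets that are not controls, 15 named 1 of the 10 genes. Of these, 11 named that gene alone and 4 named it together with another gene. Actc1, the cardiac actin, had no probe set of its own, so its signal could not be told from that of smooth muscle actin. That left 9 genes with a probe set of their own, each described by its brightest one, and 8 of them were bright enough to be tested. Nppa lay among the dimmest 30% of probe sets and was tested only in a fit with no filter.

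Heart muscle cells contract through thick filaments of myosin and thin filaments of actin, which the troponin complex switches on and off with calcium, and they meet the energy demand with myoglobin and creatine kinases. In rodents a sleeve of such muscle runs from the left atrium along the walls of the pulmonary veins into the lung, so a lung sample can hold heart muscle RNA. A sleeve of this kind is of atrial character, and atrial muscle is known for the light chain Myl7 and the hormone Nppa. The question put to these arrays was whether the 10 genes move together from sample to sample, as they would if samples held different amounts of such muscle. In bulk tissue, fewer cells of a type and less RNA per cell cannot be told apart.

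Lung RNA of 16 rats was hybridised to 1 array each. Of these rats, 8 were spontaneously hypertensive (SH) and 8 were Sprague Dawley (SD). In each strain 4 rats breathed air and 4 breathed sulfur dioxide (SO2), which gives the groups SH air, SH SO2, SD air and SD SO2, with 4 biological replicates each. The study treats the SH rat as a model of airways disease caused by SO2. The SO2 dose, how long it was breathed, when lungs were taken and the rats' age are not stated in the sources used here, nor is how the lung was cut or how much of the vessels near the heart it held.

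All arrays had been scaled to a trimmed mean signal close to 500.1, and their median signals ran from 250.2 to 281.4. Lung identity was plain: the surfactant protein gene Sftpc had group means from 25301 to 30868. Pearson's r of log2 signals ran from 0.939 to 0.968 between arrays of 1 group and from 0.933 to 0.971 between arrays of different groups, and no 2 arrays were identical. The array labelled SD air replicate 2 went against its label at Terf2ip, where it had a signal of 694 while the other SD air arrays had 1982, 2180.0 and 2363 and SH air arrays had 425 to 733. The comparisons and pairs of the heart muscle genes that rest on SD air were therefore also computed without it. Results for the other gene lists, and likeness to the mean of the heart muscle genes, are given only with it. SD air replicate 3 had the highest 3'/5' signal ratio of Gapdh among the 16 arrays, at 2.11, followed by SH SO2 replicate 1 at 2.10, while the other 14 ran from 1.30 to 1.79.

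The sequence before the start of transcription was read for the genes from RefSeq (build GRCr8), with a window for 9 of the 10 genes (Tcap had no entry), 250 bases long and given 5′ to 3′ on the strand of the gene. Those of Tnnt2 and Myh6 are shown because these genes had the closest match across arrays, Myl7 because it differed most between SO2 and air in SD rats, and Ckm because it followed the others least. The windows lie at chr13:49818873-49819122 on the plus strand for Tnnt2, chr15:32411698-32411947 on the minus strand for Myh6, chr14:84996625-84996874 on the minus strand for Myl7 and chr1:88189211-88189460 on the plus strand for Ckm. Capitals mark matches, on either strand, to 3 short motifs. The first is a GATA factor site, with the letters AGATAA. The second is an MCAT site, which TEAD factors bind and which reads CATTCC. The last is the core AAGTG of sites for Nkx2-5, a heart transcription factor.
Tnnt2: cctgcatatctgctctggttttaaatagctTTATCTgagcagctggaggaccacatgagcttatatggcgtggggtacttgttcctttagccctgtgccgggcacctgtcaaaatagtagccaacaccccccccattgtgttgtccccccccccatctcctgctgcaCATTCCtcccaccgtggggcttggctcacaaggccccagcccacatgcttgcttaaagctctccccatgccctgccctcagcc
Myh6: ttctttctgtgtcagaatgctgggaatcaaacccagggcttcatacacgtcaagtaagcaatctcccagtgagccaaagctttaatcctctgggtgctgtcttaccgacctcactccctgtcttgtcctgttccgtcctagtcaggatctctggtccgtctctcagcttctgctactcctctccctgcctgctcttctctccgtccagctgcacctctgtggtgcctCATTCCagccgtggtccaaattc
Myl7: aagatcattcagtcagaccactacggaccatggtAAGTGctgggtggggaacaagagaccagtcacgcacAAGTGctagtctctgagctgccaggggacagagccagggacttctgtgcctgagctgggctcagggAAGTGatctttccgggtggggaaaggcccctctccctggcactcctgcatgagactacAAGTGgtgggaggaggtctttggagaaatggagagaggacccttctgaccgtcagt
Ckm: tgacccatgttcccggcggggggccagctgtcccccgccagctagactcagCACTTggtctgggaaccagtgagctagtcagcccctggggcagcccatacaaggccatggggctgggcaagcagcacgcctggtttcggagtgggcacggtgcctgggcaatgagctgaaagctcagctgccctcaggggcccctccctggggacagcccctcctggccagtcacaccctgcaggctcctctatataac

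CATTCC was found before Tnnt2 and Myh6, and in 12.1% of all 33469 windows of this length. AGATAA was found before Tnnt2 and Tnni3, and in 10.3% of windows. AAGTG lay before Myl7, at 4 places, and before Nppa, Mb and Ckm, and it is common, at 40.6% of windows. An E-box (CANNTG), the site of the MyoD family and other factors, was present for 7 of the 9 genes against 65.5% of windows. An E-box can share bases with AAGTG, as at 1 place in the Ckm window. Neither a MEF2 site nor a CArG box was found in the windows of the 9 genes, and 2.96% and 1.50% of all windows held one. A match describes the letters only, and these windows hold none of the more distant control regions. Tnnt2 has a second annotated start with a window of its own, in which of these motifs only the E-box was found.

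Signals below are the deposited linear intensities, in replicate order 1 to 4. A signal depends on the probes of its set, so values are compared across arrays and not across genes. The contractile genes come first. Myl7 encodes the atrial regulatory light chain of myosin. Its signals were 816, 822, 1089 and 857 in SH air, 588, 1083, 1010.3 and 1088 in SH SO2, 762, 742, 1386 and 913 in SD air and 446, 557, 493 and 786 in SD SO2. All 4 SD SO2 arrays lay below the median of the 16, and 1 of them, replicate 4, lay within the range of SD air. SD air replicate 3 was the highest.

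Myh6 encodes the alpha heavy chain of cardiac myosin, the motor itself. Its signals were 529.6, 570.4, 867 and 572 in SH air, 737, 1328, 769.6 and 857 in SH SO2, 559.9, 679, 1419 and 411 in SD air and 212, 566, 554 and 736 in SD SO2. The highest array was 6.71 times the lowest, and replicate 3 was the high one in both air groups. Every SH SO2 array was above every SD SO2 array, the closest pair being 737 and 736. A second Myh6 probe set was dim, at 4.50 to 83.8, and was highest on the same array, SD air replicate 3. A probe set shared by Myh7 and Myh6 ran from 135 to 496, with the same lowest and highest arrays as Myh6.

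Tnnt2, the cardiac form of the troponin subunit that binds tropomyosin, had signals of 164, 244, 280.2 and 218 in SH air, 220.1, 293, 188 and 204 in SH SO2, 159, 248, 317 and 128 in SD air and 70.8, 201, 136 and 192 in SD SO2. SD SO2 replicate 1 was the lowest of the 16 and SD air replicate 3 the highest. A second Tnnt2 probe set was dim, at 36.6 to 161, and ran the other way, with its highest value on SD SO2 replicate 1: Pearson's r of its deviations from group means with those of the main probe set was -0.67 over 16 arrays. Tnni3 encodes the inhibitory troponin subunit of the heart. Its signals were 185, 162, 269.6 and 167 in SH air, 218, 399, 339 and 229.7 in SH SO2, 238, 199, 417 and 233 in SD air and 209, 200.0, 123 and 312 in SD SO2. Only 1 SH air array, replicate 3, was above the lowest SH SO2 array, and the SD groups overlapped widely.

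Tcap encodes telethonin, a protein that caps titin at the Z-disc of striated muscle. Its signals were 319, 342, 672 and 377 in SH air, 471, 581, 504 and 636 in SH SO2, 289, 397, 694 and 308 in SD air and 191, 261, 261 and 297 in SD SO2. The SD SO2 arrays kept within a narrow range and lay below all SH arrays of either exposure. In both air groups replicate 3 stood far above the other 3, and it was the highest array of all in SD air.

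The 3 probe sets shared by Acta2 and Actc1 were also highest on SD air replicate 3, at 1902, 976 and 630.0. Their lowest signals were 603 on SD SO2 replicate 3, 166 on SD SO2 replicate 2 and 125 on SD air replicate 4. Acta2, smooth muscle actin, reached 4444 on SD air replicate 3 by its own probe set, against an SD air mean of 2631. Which of the 2 actins these 3 probe sets reflect was not tested.

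Nppa encodes atrial natriuretic peptide, a hormone that atrial muscle cells secrete. Its signals were low, at 72.1, 113, 171 and 169 in SH air, 173, 235, 54.6 and 28.1 in SH SO2, 91.0, 129, 78.3 and 37.0 in SD air and 28.5, 104, 22.1 and 53.5 in SD SO2. The 10th percentile of all signals on an array was 17.1 to 26.8, so several Nppa values lay close to the dim end of the scale. It had the widest within-group spread of the 9, with a pooled SD of 0.80 on the log2 scale, and on SD air replicate 3, where 7 other genes had their highest value, its 78.3 lay close to the SD air mean of 83.8.

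The energy genes were less alike. Mb, the oxygen-binding myoglobin, had signals of 157, 164, 234 and 282 in SH air, 149, 206, 207 and 232 in SH SO2, 126, 186, 219 and 98.0 in SD air and 76.9, 159, 138 and 205 in SD SO2. SH air replicate 4 was the highest of the 16 and SD SO2 replicate 1 the lowest. Ckm, the creatine kinase of muscle cytoplasm, which skeletal muscle also expresses, had signals of 317, 296, 255 and 176 in SH air, 189, 206, 299 and 204 in SH SO2, 187, 249, 424 and 358 in SD air and 326, 157, 244 and 329 in SD SO2. All 4 groups overlapped, and SD SO2 replicate 1, the lowest array for 5 genes, was here among the higher ones. Ckmt2 encodes the creatine kinase of muscle mitochondria. Its signals were 131, 218, 219 and 141 in SH air, 211, 221, 198 and 197 in SH SO2, 192, 172, 275 and 136 in SD air and 174, 117, 136 and 141 in SD SO2. Here all SH SO2 arrays were above all SD SO2 arrays, and the SH SO2 arrays lay very close to each other.

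**Figure D1:**
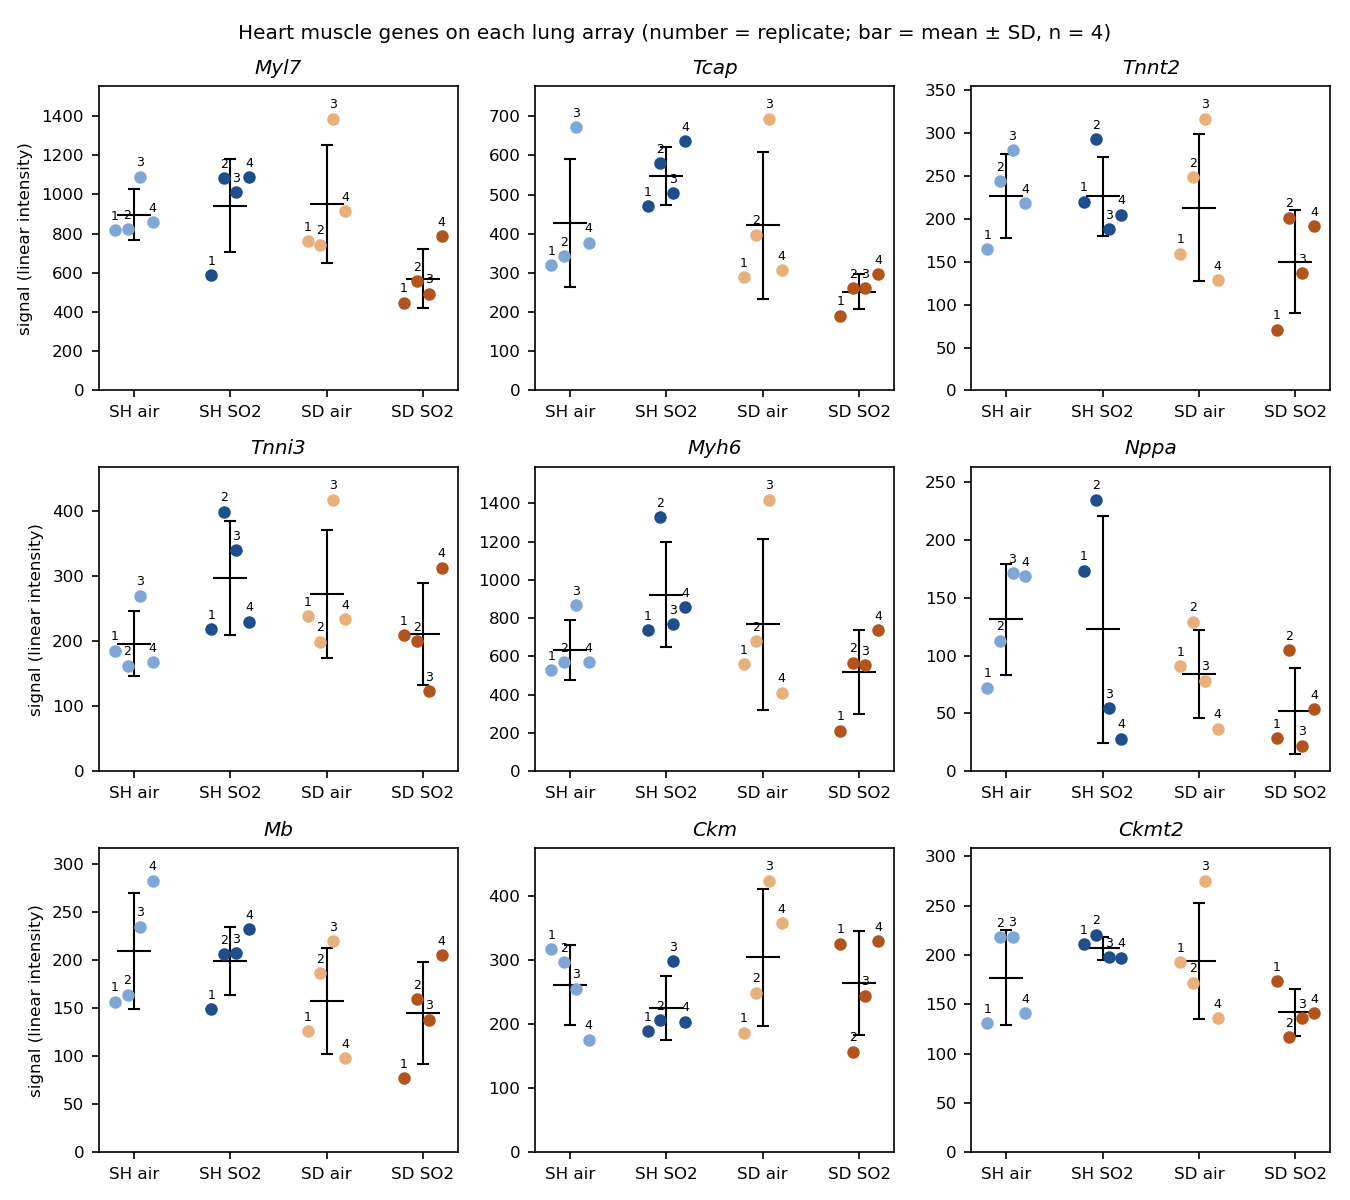
Signal (linear intensity, vertical axis) of 9 heart muscle genes on each of 16 lung arrays, by group (horizontal axis), with 1 point per array numbered by replicate and a bar for mean ± SD (n = 4). SD air replicate 3 is the highest point for 7 of the 9 genes, and the SD SO2 group holds the lowest array for all 9.

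Read array by array, the genes shared their high and low samples. SD air replicate 3 was above its group mean, taken on the log2 scale, for all 9 genes and was the highest of all 16 arrays for 7 of them, Nppa and Mb being the others. SH air replicate 3 and SD SO2 replicate 4 were also above their group means for 9 of 9 genes, and SH SO2 replicate 2 for 8 of 9. At the other end, SD SO2 replicate 1 was the lowest of 16 for 5 genes, and SD SO2 replicates 2 and 3 were the lowest for 2 genes each. Summed over the 9 genes, the signal ran from 1733 on SD SO2 replicate 1 to 5229.5 on SD air replicate 3, a sum that Myl7 and Myh6 dominate.

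**Figure D2:**
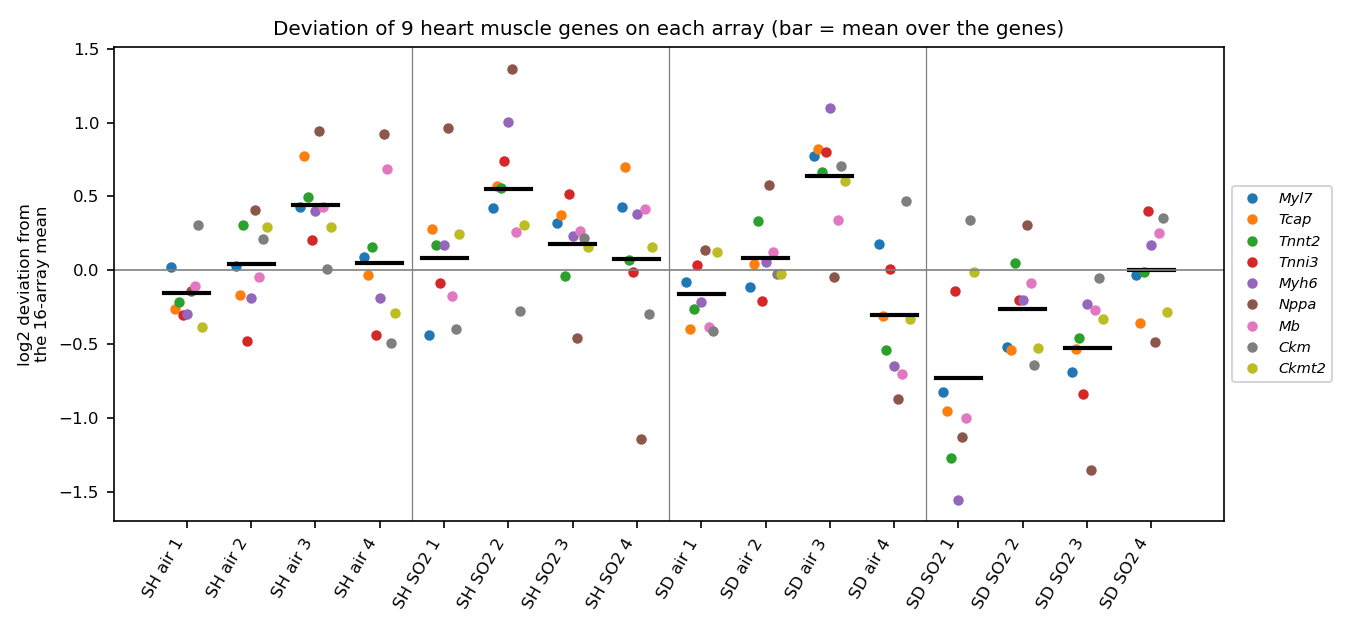
Deviation of each gene from its mean over 16 arrays (log2 scale, vertical axis) on each array (horizontal axis), with 1 coloured point per gene and a black bar for the mean over the 9 genes. The mean is highest on SD air replicate 3, at 0.64, and lowest on SD SO2 replicate 1, at -0.73; Nppa and Ckm are often apart from the rest.

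Other values also moved with these arrays. SD air replicate 3, besides its Gapdh ratio of 2.11, had the highest summed signal of 15 smooth muscle genes, 22126, against 14974 to 22126 over SD air, 15335 to 18220.6 over SH air, 16813 to 19170 over SH SO2 and 16104 to 21749.6 over SD SO2. The dimmest gene of that list, Kcnmb1, had a mean signal of 88.0. SD SO2 replicate 2, with the second highest 3'/5' ratio of actin at 2.94, and SH SO2 replicate 1, with the highest at 3.12, had mean deviations of -0.26 and 0.08 over the 9 genes. The part of muscle content, RNA quality or dissection in the high and low arrays was not tested.

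Most of the genes rose and fell together across arrays. Over the 36 pairs of the 9 genes, 32 had a positive Pearson's r of log2 signals over 16 arrays, with a median of 0.52, and 16 pairs had an adjusted p under 0.05 in a permutation test (100000 resamples, two-sided, Benjamini-Hochberg over the 36 pairs). By Spearman's rho 17 pairs passed. To set aside strain and exposure, the pairs were measured again on deviations from group means, permuted within groups. Here the median r was 0.41, 32 pairs were positive, 10 passed by Pearson's r and 6 by Spearman's rho, and none that passed was negative. A single component held 57.6% of the variance of the 9 genes' log2 signals, and 52.5% of that of their deviations from group means. No share for other sets of 9 probe sets is given beside these or beside the counts of pairs. Within groups, the r of each gene with all probe sets tested had a median from -0.05 (Tcap) to 0.03 (Ckm). The 95th percentile of that r ran from 0.43 (Nppa) to 0.54 (Ckm). Pairs share arrays and so share anything that differs between whole arrays.

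The closest pair was Tnnt2 and Myh6, a thin filament and a thick filament gene. Their r over 16 arrays was 0.89 (adjusted permutation p = 0.00054), with a rho of 0.83 (adjusted permutation p = 0.00168). Within groups the r was 0.92 (adjusted permutation p = 0.00324) and the rho 0.89 (adjusted permutation p = 0.00522). Without the 2 arrays farthest from the Tnnt2 median, SD SO2 replicate 1 and SD air replicate 3, the r was 0.74 over arrays and 0.86 within groups.

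The 10 pairs that passed within groups involved 7 of the 9 genes, all but Ckm and Ckmt2. For Tcap and Myh6 the r was 0.86 over all arrays (adjusted permutation p = 0.00054; rho 0.88, adjusted permutation p = 0.00144) and 0.83 within groups (adjusted permutation p = 0.0146; rho 0.93, adjusted permutation p = 0.0036), and 0.78 within groups without SD air replicate 3 and SH air replicate 3. For Myh6 and Mb the r was 0.76 over all arrays (adjusted permutation p = 0.0045; rho 0.79, adjusted permutation p = 0.0036) and 0.81 within groups (adjusted permutation p = 0.0169; rho 0.79, adjusted permutation p = 0.0241), and 0.69 within groups without SD SO2 replicate 1 and SD air replicate 3. For the 2 atrial or cardiac forms Myl7 and Tnni3 the r was 0.66 over all arrays (adjusted permutation p = 0.0159; rho 0.59, adjusted permutation p = 0.0414) and 0.77 within groups (adjusted permutation p = 0.02; rho 0.68, adjusted permutation p = 0.0559). Without SH SO2 replicate 1 and SD air replicate 3 their r within groups was 0.69. Tcap was joined to 3 further genes: its r within groups was 0.74 with Tnnt2, 0.74 with Myl7 and 0.73 with Mb (adjusted permutation p = 0.0158, 0.0158 and 0.0202). The remaining pairs were Tnnt2 with Mb at 0.80, Myl7 with Myh6 at 0.70 and Tnnt2 with Nppa at 0.61 (adjusted permutation p = 0.0274, 0.0406 and 0.0406). These 3 did not pass within groups by Spearman's rho (adjusted permutation p = 0.0709, 0.0507 and 0.0559), and by Pearson's r they passed in 10, 8 and 7 of the 16 runs that left out 1 array. Mb did not pass within groups with Myl7 (r 0.65, adjusted permutation p = 0.0525) or with Tnni3 (r 0.38, adjusted permutation p = 0.384). Myl7 and Nppa, both named above as atrial, did not pass either. Their r was 0.26 over all arrays (adjusted permutation p = 0.394) and -0.09 within groups (adjusted permutation p = 0.841). Each of the 10 pairs passed over all arrays too.

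Ckm followed the pattern least. None of its 8 pairs passed, over arrays or within groups, and its r with the mean deviation of the other 8 genes was -0.01 within groups, where 52.3% of all probe sets tested were less like that mean. That mean is not scaled, so Nppa, the gene with the widest spread, weighs most in it. Within groups the r of Ckm was 0.43 with Tnni3, 0.40 with Myl7, 0.32 with Ckmt2, 0.18 with Tcap and 0.02 with Myh6. With Mb and Tnnt2, Ckm had an r of -0.15 and -0.16. With Nppa its r was -0.43 over arrays and -0.50 within groups (adjusted permutation p = 0.151), the lowest of the 36. By the same measure Myh6 had an r of 0.88 with the mean of the others, Tnnt2 0.85, Tcap 0.81, Mb 0.69, Myl7 and Tnni3 0.67, Ckmt2 0.44 and Nppa 0.25. For each gene the share of all probe sets tested that were less like the mean of the other 8 was also taken: it was all of them for Myh6, 99.9% for Tcap, 92.2% for Ckmt2 and 79.2% for Nppa. These values describe the 16 arrays and carry no test.

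**Figure D3:**
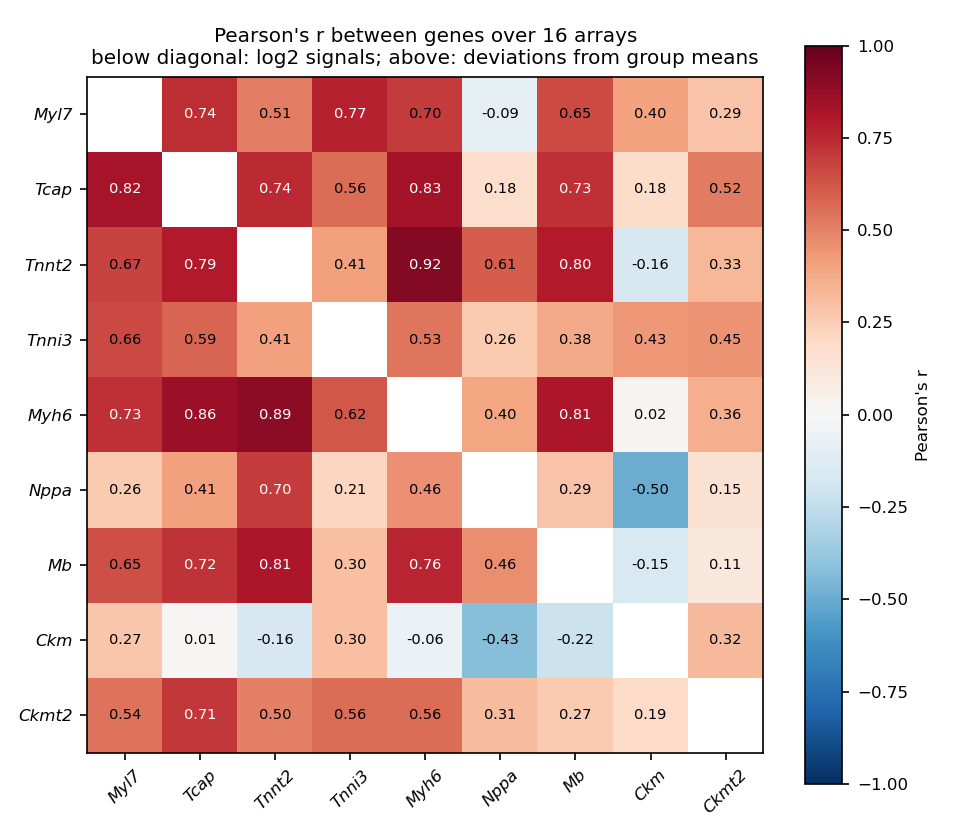
Pearson's r for each of the 36 pairs of 9 heart muscle genes over 16 arrays, of log2 signals below the diagonal and of deviations from group means above it; colour runs from blue at -1 to red at 1. Tnnt2 and Myh6 have the highest value on either side (0.89 and 0.92), and Ckm with Nppa the lowest (-0.43 and -0.50).

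A single array carried part of this. Without SD air replicate 3, 12 pairs passed over arrays, and 6 passed within groups when all 82944 rearrangements within groups were taken (exact permutation test). The median r within groups then fell to 0.26. Tnnt2 with Myh6 kept an r of 0.90 (adjusted exact permutation p = 0.0156), and Tcap with Myh6 0.73 (adjusted exact permutation p = 0.0472). The pairs Tnnt2 with Myh6, Tcap with Myh6 and Myl7 with Tcap, passed within groups whichever of the 16 arrays was left out. Leaving out SH air replicate 1 or SD SO2 replicate 4 also brought the count to 6, and leaving out the array labelled SD air replicate 2 left it at 10.

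The first comparison by exposure asked whether SO2 changed these genes in SH rats. It gave no member gene an adjusted p under 0.05 (limma, Benjamini-Hochberg over 11106 probe sets), as it gave 0.0% of all probe sets. Most of the genes rose and fell together across arrays, so a count over the 8, here and below, is not one of independent genes. The log2 difference was above 0 for 6 of the 8 tested genes against 53.6% of all probe sets, with a median of 0.14 against 0.02. That direction was not stable. It was 3 of 8 with a median of -0.06 with the sample title number as a covariate, and 4 of 8 with a median of 0.08 with arrays centred on their medians. The title number opens each sample title, and what it marks is not stated. It was 40 to 43 in SH air, 44 and 51 to 53 in SH SO2, and 45, 46, 54 and 55 in SD air. Every SH air number is thus below those of SH SO2 and SD air, so this covariate is partly confounded with those comparisons. Leaving out SH air replicate 1 gave 4 of 8 (median 0.06), as did leaving out replicate 2 of SH SO2 (0.08), while it was 7 of 8 when replicate 3 of SH air or replicate 1 of SH SO2 was left out (0.24 each). At an unadjusted p under 0.05 the count was 0 of 8, against 4.84% of all probe sets. The largest was Tnni3, at 0.54 ± 0.27 (SE; 95% confidence interval -0.02 to 1.11; limma adjusted p = 0.949), from a mean signal of 196 ± 50.1 (SD, n = 4) in air to 296 ± 87.3 in SO2. Myh6 was at 0.52 (SE 0.34), with means of 635 in air and 923 in SO2, and Tcap at 0.40 (SE 0.25), both with the same adjusted p. Myl7, Tnnt2 and Mb were between -0.05 and 0.04, and Nppa was at -0.35 (SE 0.50) in the fit with no filter. No gene separated the groups; 4.17% of all probe sets did.

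In SD rats all 8 tested genes, and Nppa, were lower in SO2 than in air, though none passed the test over all probe sets. The share of all probe sets below 0 was 46.6%, and the median log2 difference was -0.43 for the 8 genes against 0.02 for all. The same comparison called 0.0% of all probe sets. Myl7 was at -0.71 (SE 0.22; 95% confidence interval -1.16 to -0.25; limma adjusted p = 0.428), with mean signals of 951 ± 300.0 (SD, n = 4) in air and 571 ± 151 in SO2. Tcap was at -0.64 (SE 0.25; limma adjusted p = 0.522), from 422 ± 187 to 253 ± 44.5. These 2 of 8 had an unadjusted p under 0.05, as did 8.24% of all probe sets. Below them came Myh6 at -0.53, Tnnt2 at -0.47, Ckmt2 at -0.38, Tnni3 at -0.35, Ckm at -0.18 and Mb at -0.12, each with an interval that includes 0, and Nppa was at -0.61 (SE 0.50). SD air and SD SO2 overlapped for every one of these genes; 3.54% of all probe sets had groups that did not. The values lean on SD air replicate 3: without it 7 of 8 genes were below 0, the median was -0.20 and Myl7 was at -0.51 (limma adjusted p = 0.733). With the array labelled SD air replicate 2 set aside, the median was -0.45, with 8 of 8 below 0.

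The difference between the strains in the SO2 effect, SH minus SD, is the test of whether exposure acted unequally. It is built from the 2 comparisons above and uses their arrays. By limma it called 0 of 8 genes, and 0.0% of all probe sets. The value was above 0 for 7 of 8 genes against 50.2% of all probe sets, with a median of 0.68 against 0.0011. Tcap was at 1.04 (SE 0.35; 95% confidence interval 0.31 to 1.76), Myh6 at 1.04 (SE 0.48), Tnni3 at 0.90 (SE 0.38) and Myl7 at 0.75 (SE 0.31). These 4 of 8 compare with 4.65% of all probe sets at an unadjusted p under 0.05, and each had an adjusted p of 0.981. Ckm was at -0.01 and Mb at 0.07. With the sample title number as a covariate 5 of 8 genes were above 0, with a median of 0.38. The median was 0.50 without SD air replicate 3 and 0.75 with the array labelled SD air replicate 2 set aside.

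In air no heart muscle gene passed the test between the strains. Of the 8, 3 were higher in SH and 5 lower, against 50.3% of all probe sets higher, with a median of -0.08, and limma called 0 of 8 genes, 0 at an unadjusted p under 0.05, where 6.38% of all probe sets had one and 0.0% were called. The widest differences were Tnni3 at -0.41 (SE 0.27) and Mb at 0.40 (SE 0.28). None of the 8 separated the groups, against 4.02% of all probe sets. Without SD air replicate 3, 6 of 8 genes were higher in SH, with a median of 0.17, and with the sample title number as a covariate 6 of 8, with a median of 0.28. With array weights 4 of 8 were higher, with a median of 0.01. Without SH air replicate 1 it was 4 of 8 with a median near 0, and without SH air replicate 3 it was 2 of 8 with a median of -0.18. With the array labelled SD air replicate 2 set aside, 3 of 8 were higher, with a median of -0.15, while 0.774% of all probe sets were then called.

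In SO2, SH rats had higher signals than SD rats for 7 of the 8 tested genes, Ckm being the exception, against 50.1% of all probe sets. Tcap was the 1 gene called: it was 2.11-fold higher in SH, a log2 difference of 1.08 (SE 0.25; 95% confidence interval 0.56 to 1.59; limma adjusted p = 0.0407), with mean signals of 548 ± 74.5 (SD, n = 4) and 253 ± 44.5. It was higher in 4 of 4 SH arrays than in any SD array. This 1 gene of 8 compares with 0.81% of all probe sets called, and with 0.405% called higher. Myh6, at 0.90 (SE 0.34; limma adjusted p = 0.3), and Ckmt2, at 0.51 (SE 0.22; limma adjusted p = 0.419), also had groups that did not overlap but did not pass. That makes 3 of 8 genes without overlap, all higher in SH, against 5.58% of all probe sets in either direction and 2.82% higher. The median over the 8 genes was 0.56 against 0.00042 for all probe sets.

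Of the others, Myl7 was at 0.70 (SE 0.22; limma adjusted p = 0.167), Tnnt2 at 0.62 (SE 0.29; limma adjusted p = 0.485), Tnni3 at 0.48, Mb at 0.47 and Ckm at -0.19. Nppa was at 0.85 (SE 0.50; limma adjusted p = 0.661 with no filter). At an unadjusted p under 0.05, 5 of 8 genes stood, against 10.1% of all probe sets, though most of the 8 varied together across arrays. The comparison uses the same SD SO2 arrays as that of SO2 with air in SD rats, so the 2 are given side by side and neither counts as support for the other. The Tcap call was narrow: it was lost in 10 of 16 fits that left out 1 array, with adjusted p from 0.0108 to 0.134, while its log2 difference stayed between 0.96 and 1.16. The arrays whose loss ended it were SH air replicates 2 and 4, all 4 SH SO2 arrays and all 4 SD SO2 arrays. Without SH SO2 replicate 1, where Myl7 was low, Myl7 passed instead, at 0.91 (limma adjusted p = 0.0466).

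**Figure D4:**
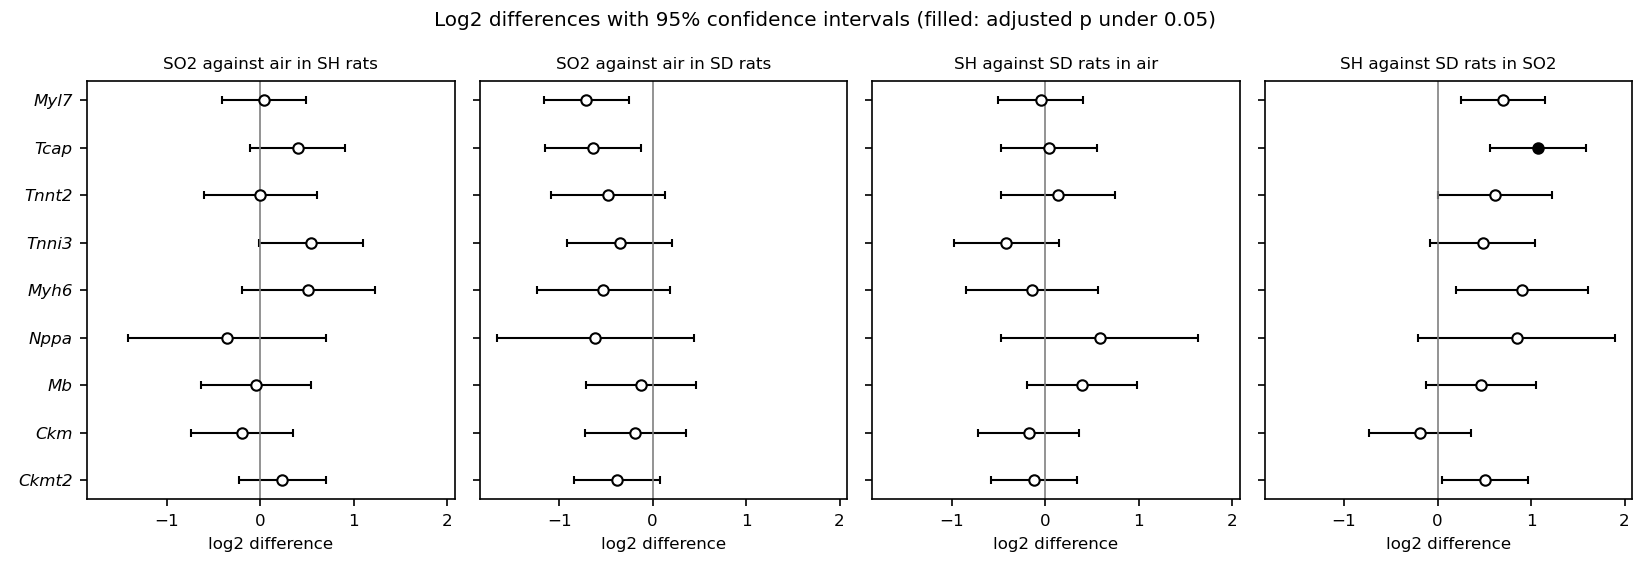
Log2 difference with its 95% confidence interval (horizontal axis) for 9 heart muscle genes (vertical axis) in 4 comparisons, 1 panel each; a filled point marks an adjusted p under 0.05, and Nppa comes from the fit with no filter. All 9 points lie below 0 for SO2 against air in SD rats, 8 of 9 lie above 0 for SH against SD in SO2, and Tcap in that panel is the only filled point.

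Other genes of the heart muscle program were read from lists. Of 28 further genes of the sarcomere and contractile apparatus, 16 were bright enough to test, and none was called in any of the 5 comparisons. In SO2 13 of 16 were higher in SH than in SD, with a median of 0.17, against 50.1% of all probe sets. In air 12 of 16 were higher, with a median of 0.04, against 50.3%. In SD rats 9 of 16 were lower in SO2 than in air, with a median of -0.03, against 46.6% of all probe sets. The 4 brightest were Cryab, a small heat shock protein, at 0.27 for SH against SD in SO2, Hspb7, a small heat shock protein of heart muscle, at 0.17, Tmod1, which caps thin filaments, at 0.17, and Ankrd1, a stretch-responsive repeat protein, at -0.29. The atrial essential light chain Myl4 was at 0.64 (SE 0.21; limma adjusted p = 0.206) and the calcium-binding troponin Tnnc1 at 0.55 (SE 0.22; limma adjusted p = 0.355); both were picked out after their values were seen. The other genes of this list with a probe set were too dim to test: Myl2, Myl3, Myh7, Actn2, Myom1, Myoz2, Xirp1, Trim63 and Mylk3. Among them the myosin chains Myl2, Myl3 and Myh7 had mean signals of 47.6, 46.9 and 18.4.

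Calcium handling and electrical genes were mixed. Of 24, 15 were tested and none was called in any comparison. In SO2 4 of 15 were higher in SH than in SD, with a median of -0.10, against 50.1% of all probe sets. The bright ones, such as the gap junction genes Gja1 and Gja5 and the calcium pump Atp2a2, are also made by vessel or other lung cells. Of 15 heart transcription factors and natriuretic peptide genes, 6 were tested, of 16 genes of muscle oxidative metabolism 13, and of 31 skeletal muscle genes 7, again with none called. Of the 29 skeletal muscle genes with a probe set, the 7 tested were those above the filter. The medians for SH against SD in SO2 were 0.09 for the transcription factor list, 0.18 for oxidative metabolism and -0.05 for skeletal muscle. In SD rats the medians for SO2 against air were -0.06, -0.06 and 0.01 in the same order, where the 8 heart muscle genes had -0.43.

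Markers of other lung cells moved in different ways. Of 14 smooth muscle genes tested, 13 were higher in SO2 than in air in SD rats, with a median of 0.18, where all 8 heart muscle genes were lower. Of 14 endothelial genes, 11 were lower there, with a median of -0.15. Of all probe sets, 46.6% were lower there, with a median of 0.02. None of these smooth muscle and endothelial genes passed the test. In SO2, 10 of 14 smooth muscle genes were lower in SH than in SD, with a median of -0.17. In air 10 of 14 were, with a median of -0.10. Of all probe sets, 50.1% were higher in SH in SO2 and 50.3% in air. Genes of 1 list can vary together, so such counts need not be of independent genes. Also in SO2, Cyp2f4, an enzyme of the club cells of the airway, was called lower, at -1.26, as was the globin gene Hba-a3, at -1.28, which red blood cells carry. In air the same 2 genes were at -0.84 and -1.24 (limma adjusted p = 0.0979 and 0.171). The smooth muscle list's summed signal averaged 16679.9, 17985, 17868 and 19779.9 in SH air, SH SO2, SD air and SD SO2, and that of the endothelial list 48026, 46666, 50182 and 44589. Their part in the differences of the heart muscle genes was not tested.

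Across arrays, the listed genes were compared with the mean deviation of the 9 heart muscle genes from group means, as a description with no test. All 16 sarcomere genes had a positive r, with a median of 0.44, where the median over the 11098 other probe sets was -0.02 and their 5th and 95th percentiles were -0.52 and 0.50. Hspb7 was highest in that list, at 0.76. Of the other probe sets, 47.1% were above 0. The median was 0.18 for calcium handling, with 12 of 15 genes above 0. For heart transcription factors and natriuretic peptides it was -0.29, with 0 of 6 above 0 and values from -0.45 to -0.05. Oxidative metabolism had 0.16, with 9 of 13 above 0. Highest there was Cox8b, the muscle form of a cytochrome oxidase subunit, at 0.77. Skeletal muscle had -0.08, with 3 of 7 above 0. The list of smooth muscle genes had a median of 0.43, close to that of the sarcomere list, with 9 of 14 above 0. Endothelium had 0.21, with 8 of 14 above 0 and values from -0.64 to 0.77. The highest of these was Cldn5, a tight junction gene. Alveolar type II cells had 0.34 and airway epithelium -0.16. Cartilage, nerve, adipocyte, mesothelium and macrophage markers, with 2 to 4 genes tested each, had medians from -0.19 to 0.24, alveolar type I cells 0.03 and red blood cells -0.13.

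**Figure D5:**
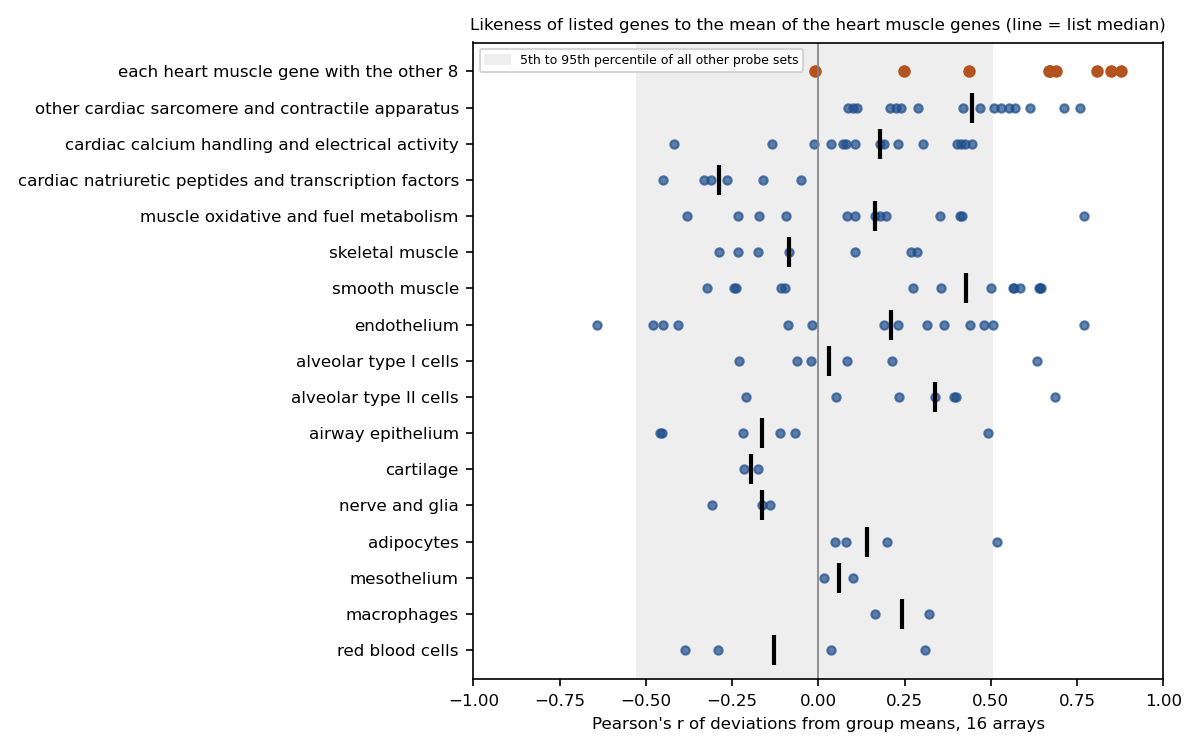
Pearson's r over 16 arrays of deviations from group means (horizontal axis): top row, each of the 9 heart muscle genes with the mean of the other 8; rows below, each tested gene of a list with the mean of the 9, where a black line marks the list median. The grey band spans the 5th to 95th percentile of all other probe sets, -0.52 to 0.50, and the points of the top row reach from -0.01 to 0.88.

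The 10 genes most like the mean of the heart muscle genes by this measure were Eva1b, Dapk3, Cmss1, Mpv17l2, Ocel1, Rnaseh2c, Atxn7l3b, Agpat2, Usp19 and Ypel3, with r from 0.84 down to 0.80 over 16 arrays. None is in the muscle or cell type lists, and none was called in any comparison. They were taken as the highest of 11098 probe sets, so their r carries no test. For comparison, the highest r of a listed muscle gene was the 0.77 of Cox8b.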

How the data were processed

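Lung RNA of 16 rats was measured on 1 Affymetrix array each. The authors' deposited table holds 1 linear intensity per probe set and array. GCOS is named in the submitters' processing notes, with no version and no algorithm. Of 15923 probe sets, 57 are controls and were not used. The platform annotation gives 12783 of the remaining 15866 a single symbol, 312 several and 2771 none.

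Intensities were used as log2(intensity + 16), so fold changes of dim genes are understated. The dimmest 30% of probe sets by mean log2 signal were left out, which left 11106. Each gene was represented by its brightest probe set. limma 3.58.1 in R 4.3.3 fitted 1 mean per group over all 16 arrays, with eBayes and a trend on mean level, 12 residual degrees of freedom before moderation, and Benjamini-Hochberg adjustment over all probe sets tested; called means an adjusted p under 0.05. The fit was tested on simulated data. Correlations used permutation tests of 100000 resamples in numpy 2.4.6, or all 82944 rearrangements within groups where 1 array was left out.

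The number of arrays limits the precision, and no batch or scan date was given for them. Replicate numbers only name the arrays of a group, in the order listed.

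The genes and lists were chosen with earlier results of these data known. Genes are named by rule: all 10 heart muscle genes, from each list at most the 4 brightest tested plus any called, and the 10 genes most like the mean of the heart muscle genes; others are marked as chosen after their values were seen. Alternatives tried were other offsets, normalizations, filters, ways to join probe sets, eBayes settings, array weights, covariates, a replicate block, and leaving out each array.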

Additional observations from a re-analysis of the deposited data

Results flagged for a closer look

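Within groups of 4 arrays, 36 groups of values (9 genes in 4 groups) were examined for an array standing far from the other 3, its gap divided by the group's whole range exceeding Dixon's 95% critical value, which chance passes in about 1 of 20 groups. There were 3. In SH air, replicate 3 had a Myl7 signal of 1089 while the other arrays had 816 to 857, a ratio of 0.832. The same array had a Myh6 signal of 867 while the others had 529.6 to 572, a ratio of 0.846. In SH SO2, replicate 1 had a Myl7 signal of 588 while the others had 1010.3 to 1088, a ratio of 0.879; this array also had the highest 3'/5' actin ratio, 3.12, and the cause was not tested.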

How the results depend on the processing

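The count of heart muscle genes called was 0 in 4 comparisons under all alternatives run. For SH against SD in SO2 it was 1 (Tcap) in the reported fit and 0 with arrays centred on their medians, with no filter, with no eBayes trend, with array weights and with the title number as a covariate (Tcap adjusted p 0.0622, 0.0743, 0.0748, 0.0585 and 0.0502 by limma, at a log2 difference of 1.00 to 1.09); it was 0 to 1 over the fits that left out 1 array. Same-numbered arrays did not pair: 4 of 24 pairs had a correlation of deviations over 0.1 (range -0.43 to 0.15). With the replicate block it was 1, with a Tcap adjusted p of 0.0186, and the block changed no other call. Pairs with an adjusted permutation p under 0.05 numbered 16 over arrays, 10 with probe sets of a gene averaged, 10 as deviations from group means and 12 to 17 without 1 array; within groups they were 10, 6 by Spearman's rho and 6 to 11 without 1 array, alternatives chosen after seeing the data. Of values for single genes, these changed sign. With the title number as a covariate, SO2 against air in SH became -0.63 for Myl7, -0.018 for Tcap and -0.11 for Tnnt2, the strain difference in the SO2 effect -0.043 for Myl7 and -0.32 for Mb, and SH against SD in air 0.62 for Myl7, 0.26 for Myh6 and 0.30 for Ckm. With arrays centred on their medians, SO2 against air in SH became -0.015 for Myl7 and -0.051 for Tnnt2, and with quantile normalization -0.051 for Tnnt2. With the signal percentile and actin ratio as covariates, it became -0.069 for Tnnt2 and 0.12 for Mb, and SH against SD in air 0.014 for Myl7. With array weights Ckm became 0.017 for SO2 against air in SD and Myl7 0.036 for SH against SD in air; with probe sets averaged Myh6 became 0.074 in the latter. Without 1 array, the values that changed sign ranged, for SO2 against air in SH Myl7 -0.041 to 0.25, Tnnt2 -0.13 to 0.11, Mb -0.16 to 0.099, and for SO2 against air in SD Mb -0.30 to 0.12, Ckm -0.38 to 0.031, and for the strain difference in the SO2 effect Mb -0.17 to 0.25, Ckm -0.22 to 0.19, and for SH against SD in air Myl7 -0.15 to 0.15, Tcap -0.19 to 0.30, Tnnt2 -0.060 to 0.34, Myh6 -0.38 to 0.20, Ckmt2 -0.26 to 0.056. The cause was not tested. The other values kept their sign. With the dimmest 50% left out, 3 of the 8 genes were tested, with medians of 0.40, -0.64, 1.04, -0.05 and 0.90 for SO2 in SH, SO2 in SD, their difference, and the strains in air and in SO2. A fit to the compared groups alone gives no strain difference in the SO2 effect. Signals near background, as for Nppa, and 4 arrays a group limit what could be detected.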
